A study of Mus musculus with 7 samples.

Results

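Interleukin-1 family ligands and receptors were followed in RNA of cells gated as sinusoidal endothelium from mouse bone marrow, with and without diphtheria toxin (DT). The set was chosen by gene name and holds 10 of the 50435 gene rows of the deposited table: the ligand genes Il1a, Il1b, Il1f9 and Il18, the antagonist gene Il1rn, and the receptor genes Il1r1, Il1r2, Il1rap, Il1rl1 and Il18rap. RNA of Il1b, Il1rn, Il1f9, Il1r2 and Il18rap was over 20-fold higher in DT than in PBS libraries, and that of Il1rap was 2.36-fold higher. Il1r1, the signalling receptor for interleukin-1, did not exceed 2.48 RPM (reads of a gene scaled to the total of its library) in any library. Il1rl1, the receptor for interleukin-33, had the lower mean in DT, but its groups overlapped.

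Both groups were mice that had been irradiated as wild-type recipients and given Zbtb46dtr bone marrow, and both were treated 8 weeks later. The DT group (3 libraries) received 200 ng of toxin in 100 ul of PBS by intraperitoneal injection, the PBS group (4 libraries) 100 ul of PBS with no toxin, and cells were taken after 1 day. The gate took CD31+ Sca1- cells that lacked the lineage markers CD45, Ter119, Gr1 and CD11b. The stated aim of the treatment was to remove classical dendritic cells, and the comparison asks how RNA of the sorted cells differed after it. The labels call the samples biological replicates without saying whether each is 1 mouse, so p-values measure the spread between these samples. The labels name no strain, age or sex. In this model the toxin receptor is carried by the transplanted blood cells under control of Zbtb46, a gene of classical dendritic cells that is also known in endothelium and in erythroid progenitors, and both groups carried it.

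Interleukin-1α and interleukin-1β signal through the receptor encoded by Il1r1 together with the accessory chain encoded by Il1rap, and start a pathway through Myd88 and the Irak kinases to NF-κB. The antagonist encoded by Il1rn occupies the same receptor without signalling, and Il1r2 encodes a decoy that binds ligand but lacks the signalling domain. Interleukin-18 has its own receptor pair, encoded by Il18r1 and Il18rap, and interleukin-33 and the product of Il1f9 (interleukin-36γ) use Il1rl1 and Il1rl2 with the same accessory chain. In bone marrow, neutrophils and monocytes are known sources of several of these proteins, and interleukin-1 acts on stromal and progenitor cells.

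The 7 libraries held 33195572 to 51245522 reads, as implied by the most frequent nonzero value of each library, taken as 1 read. On this scale 3 reads correspond to 0.0585 to 0.0904 RPM. In correlations of log2(RPM + 1) over all tested genes, pairs of PBS libraries ranged from 0.908 to 0.963, pairs of DT libraries from 0.962 to 0.966, and pairs across groups from 0.798 to 0.875. Lists of cell type markers differed between the groups. Their counts can be set beside all genes tested, of which 13.4% were called higher and 18.6% lower in DT. All 12 neutrophil markers were higher in DT, and their summed level was 1796 to 3766 RPM in PBS and 53777 to 58305 RPM in DT. All 10 monocyte and macrophage markers were higher too, with sums of 392 to 790 and 6731 to 8356 RPM. Of 10 T and natural killer cell markers 9 were higher, with sums of 24.5 to 53.7 and 334 to 351 RPM. Of the genes called higher, 2 of the monocyte and 5 of the T and natural killer list passed the filter of a mean of 1 RPM through their DT values alone, and none of the genes of these 3 lists was at 0 throughout. B-lineage markers were lower for 8 of 9 genes, with sums of 5186 to 7643 RPM in PBS and 3157 to 3566 RPM in DT. Of 8 classical dendritic cell markers 5 were tested, and Cd209a, Itgax and Flt3 were higher and none lower, with sums of 34.2 to 58.5 and 55.0 to 71.0 RPM. The most abundant gene in these sums was Ccr7, at 29.7 ± 14.3 (SD, n = 4) and 33.5 ± 2.32 RPM (SD, n = 3). It did not pass the threshold (limma adjusted p = 0.533). Xcr1 (0.0264 to 0.869 and 0.0195 to 0.856 RPM) and Clec9a (0 to 2.11 and 0.231 to 1.09 RPM) were too low to be tested, and their groups overlapped. Batf3, also untested, was higher in every DT library (0 to 0.562 and 0.571 to 1.27 RPM). Zbtb46 had a PBS mean of 9.21 ± 6.62 RPM (SD, n = 4) and a DT mean of 1.57 ± 1.55 RPM (SD, n = 3), with a limma adjusted p of 0.0556. Endothelial markers summed to 109 to 124 RPM in PBS and 94.3 to 125 RPM in DT. Most of it was Pecam1, the gene of the CD31 used in the gate, at 82.3 ± 21.5 (SD, n = 4) and 80.3 ± 7.91 RPM (SD, n = 3). Of the 16 endothelial markers 10 were too low to be tested. Of the 6 tested, 1 was higher and none lower. The higher gene is 1 of 3 that passed the filter through their DT values alone. Cdh5, the gene of the endothelial cadherin, is another of the 3, at 0.811 ± 1.27 (SD, n = 4) and 2.10 ± 1.18 RPM (SD, n = 3). In such bulk samples, more cells of a type and more RNA per cell cannot be told apart.

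Il1b encodes interleukin-1β, a cytokine made as an inactive precursor by activated phagocytes. Its RNA stood at 1.27, 1.41, 0.975 and 3.57 RPM in PBS libraries 1 to 4 and at 69.4, 80.9 and 115 RPM in DT libraries 1 to 3. In reads this is 37 to 138 per PBS library against 2805 to 5897 per DT library. Every DT library was far above every PBS library, and DT 3 was the highest. The means were 1.80 ± 1.19 RPM (SD, n = 4) and 88.5 ± 23.8 RPM (SD, n = 3), a 49.0-fold difference. Limma on log2(RPM + 1), adjusted over all 14100 genes tested, gave a change of 5.05 ± 0.33 (SE) with an adjusted p of 5.95e-06. The exact permutation test over the 35 splits of 7 libraries gave p = 0.0286, two-sided, the smallest it can give.

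Il1f9, the gene of interleukin-36γ, is known mainly from skin and other barrier tissues and from phagocytes. Its RNA was at 3.28, 0.358, 4.48 and 1.35 RPM in PBS and at 108, 123 and 113 RPM in DT. The 3 DT libraries lay close together, while PBS 2, with 14 reads, was the lowest library. The means were 2.37 ± 1.86 (SD, n = 4) and 115 ± 7.45 RPM (SD, n = 3), 48.5-fold apart. The limma change was 5.30 ± 0.43 with an adjusted p of 2.28e-05.

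The remaining ligand genes differed by less. Il18 encodes a precursor that many cell types make without stimulation. It was at 2.62, 1.79, 4.45 and 2.82 RPM in PBS and at 4.18, 6.80 and 15.3 RPM in DT. DT 1 lay below PBS 3, so the groups overlapped, and DT 3 was the highest library. The change of 1.19 ± 0.41 fell short of the threshold (adjusted p = 0.0517 by limma, 0.0857 by exact permutation), and its 95% interval ran from 0.27 to 2.12. It passed in 6 of 18 other settings, among them without DT 1 (adjusted p = 0.0324), without PBS 3 (0.0496) and with median-ratio scaling (0.0351).

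Il1a encodes interleukin-1α, which is active without cutting and is known as an alarm signal of damaged cells. It was at 1.87, 0.0256, 0 and 0 RPM in PBS and at 0.921, 8.84 and 3.05 RPM in DT. PBS 1 exceeded DT 1, so the groups overlapped, and DT 2 was the highest library. Its log2 change of 1.70 ± 0.58 passed narrowly (limma adjusted p = 0.0478), but the exact permutation p was 0.0857. The gene passed the filter through its DT values alone, and the call was lost in 10 of the 16 other settings that gave a value, among them without PBS 2 (0.0950), PBS 3 (0.104), PBS 4 (0.107) or DT 3 (0.112). Its exons share 222 bases with Gm14023 on the opposite strand, and without known strand use the reads of such a pair cannot be told apart.

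Il1rn, the receptor antagonist, was high in DT together with the ligand it opposes. It was at 2.65, 3.78, 3.00 and 1.45 RPM in PBS and at 66.9, 63.6 and 56.1 RPM in DT. The groups were far apart, and here DT 3, the highest library for Il1b, was the lowest of the 3. The means were 2.72 ± 0.971 (SD, n = 4) and 62.2 ± 5.53 RPM (SD, n = 3), 22.9-fold apart, and the limma change was 4.12 ± 0.27 with an adjusted p of 5.95e-06.

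Among the receptors, the decoy led. Il1r2 was at 3.83, 0.358, 4.88 and 3.10 RPM in PBS and at 148, 129 and 149.6 RPM in DT. The DT libraries held 5433 to 7665 reads each, the PBS libraries 14 to 185, and PBS 2 was again the lowest. The means were 3.04 ± 1.93 (SD, n = 4) and 142 ± 11.4 RPM (SD, n = 3), 46.8-fold apart, and the limma change was 5.33 ± 0.44 with an adjusted p of 2.60e-05.

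The receptor that signals was barely detected. Il1r1 was at 0.482, 2.48, 0.185 and 0 RPM in PBS and at 0.445, 1.24 and 1.87 RPM in DT. PBS 2 was the highest of all libraries, and the groups overlapped throughout. Its mean over all libraries was below 1 RPM, so it was not among the genes tested, and the exact permutation test gave p = 0.486. Without the filter its log2 change was 0.42 ± 0.47 (limma adjusted p = 0.627).

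Il1rap, the accessory chain shared by the receptors for interleukin-1, interleukin-33 and interleukin-36, was present in every library. It was at 12.4, 11.1, 4.98 and 9.93 RPM in PBS and at 23.8, 19.9 and 24.5 RPM in DT. The lowest DT library stood above the highest PBS library. The means were 9.62 ± 3.26 (SD, n = 4) and 22.7 ± 2.5 RPM (SD, n = 3), and the log2 change was 1.22 ± 0.30 (limma adjusted p = 0.0129). The call was lost without DT 1 (0.0514) and without DT 3 (0.0587). Opposite-strand Gm20319 shares 552 exon bases with Il1rap, whose RNA for the soluble and the membrane form was not resolved.

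Il18rap, the accessory chain of the interleukin-18 receptor, is known in natural killer cells, T cells and neutrophils. It was at 1.72, 2.10, 4.06 and 1.81 RPM in PBS and at 65.8, 59.6 and 68.8 RPM in DT. The groups were far apart and the DT libraries close together. The means were 2.42 ± 1.10 (SD, n = 4) and 64.8 ± 4.68 RPM (SD, n = 3), 26.8-fold apart, and the limma change was 4.31 ± 0.27 with an adjusted p of 4.94e-06.

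Il1rl1 ran the other way in its mean. Its product, ST2, is the receptor for interleukin-33 and is known in mast cells, basophils and type 2 innate lymphoid cells. It was at 2.38, 33.1, 14.9 and 7.81 RPM in PBS and at 2.33, 3.38 and 1.81 RPM in DT. PBS 2 was far above the other PBS libraries, PBS 1 lay within the DT range, and the other PBS libraries lay above every DT library. The means were 14.6 ± 13.4 (SD, n = 4) and 2.51 ± 0.796 RPM (SD, n = 3). The change of -1.71 ± 0.65 did not pass (adjusted p = 0.0696 by limma, 0.0857 by exact permutation), while without PBS 1 it was -2.29 with an adjusted p of 0.00370, and with sample weights -1.75 with 0.00999.

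**Figure D1:**
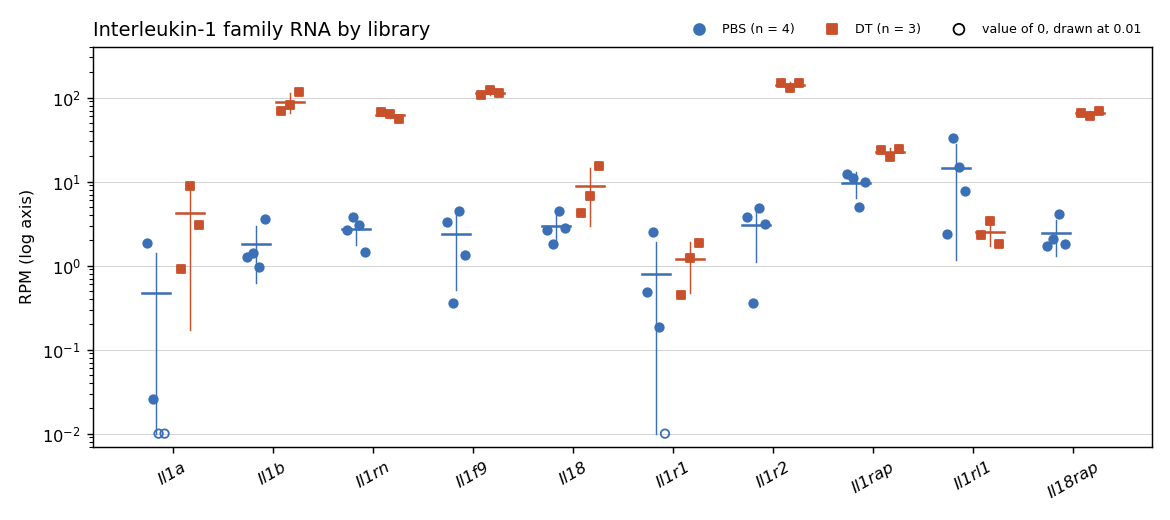
RNA level of the 10 interleukin-1 family genes in each library, in RPM on a log axis, with PBS as blue circles (n = 4) and DT as orange squares (n = 3). Horizontal bars are group means and vertical lines 1 SD, clipped at the lower edge of the axis, and open circles mark values of 0, drawn at 0.01. The groups do not overlap for Il1b, Il1rn, Il1f9, Il1r2, Il1rap and Il18rap.

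Of the 10 genes, 7 rose, none fell, 2 did not pass the threshold and 1 was not tested. Il1a, 1 of the 7, passed the filter through its DT values alone. The count of 7 became 6 with no filter, 5 without DT 3, and 8 with median-ratio scaling or sample weights. Over all 14100 genes tested, 13.4% were higher and 18.6% lower in DT, 32% in either direction. Groups did not overlap for 6 of the 10, DT being higher in each, against 16.1% of all tested genes with DT higher and 24.7% with DT lower, 40.9% in all. The 9 tested genes of the set had a median log2 change of 4.12, beside -0.23 over all genes tested. With median-ratio scaling the median of all genes moved to -0.02, and the counts changed from 1894 higher and 2622 lower genes to 2381 and 1323. The calls of Il1b, Il1rn, Il1f9, Il1r2 and Il18rap held in all 18 other settings, and each of these genes moved in the same direction as the neutrophil and monocyte marker sums given above, whose part in the result was not tested.

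**Figure D2:**
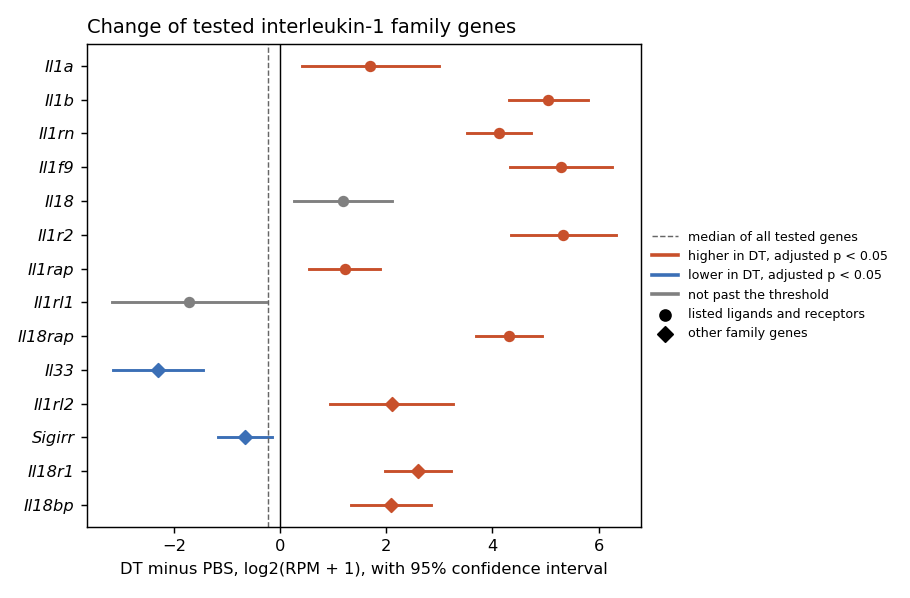
Difference between DT and PBS in mean log2(RPM + 1) for the 9 tested genes of the set (circles) and 5 other family genes (diamonds), with 95% confidence intervals from limma. Orange and blue mark genes past the adjusted threshold in each direction, grey those not past it, and the dashed line is the median of all tested genes at -0.23. Il1r2, Il1f9 and Il1b lie above 5, and Il33 lies at -2.30.

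Levels of different genes can be set side by side only after division by length, here the union of annotated exons, which understates genes with many long isoforms such as Il1rn and Il1rap. In DT the order of mean levels per kilobase was Il1r2 (74.6 ± 6.0 RPM per kb), Il1f9 (69.6 ± 4.52), Il1b (46.4 ± 12.5), Il1rn (11.2 ± 1.00), Il18rap (9.59 ± 0.693), Il18 (8.48 ± 5.62), Il1a (2.16 ± 2.08), Il1rap (2.00 ± 0.220), Il1rl1 (0.363 ± 0.116) and Il1r1 (0.186 ± 0.112; all SD, n = 3). The ranges of neighbours over the 3 libraries overlapped, except for Il1f9 above Il1b, Il1b above Il1rn, and Il1rap above Il1rl1. Per kilobase, the decoy overlapped with the ligand gene Il1f9 and had a range above that of Il1b, and the signalling receptor was last.

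In PBS the order was different. Il18 came first (2.83 ± 1.08 RPM per kb), followed by Il1rl1 (2.11 ± 1.94), Il1r2 (1.59 ± 1.01), Il1f9 (1.44 ± 1.13), Il1b (0.946 ± 0.624), Il1rap (0.847 ± 0.287), Il1rn (0.492 ± 0.176), Il18rap (0.359 ± 0.164), Il1a (0.240 ± 0.471) and Il1r1 (0.124 ± 0.180; all SD, n = 4). The ranges over libraries of all neighbours in the PBS order overlapped. Il1r1 was last in both groups.

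The stretches of 250 bases before the annotated start are shown for 5 genes. Il1b, Il1f9, Il1r2 and Il18rap are those over 20-fold higher in DT with a single RefSeq start site, and Il1rl1 is the receptor whose mean was lower in DT, with 2 start sites. All 10 genes matched the RefSeq table (GRCm38.p6), with 14 start sites. Capitals mark matches to 6 motifs, which were searched on both strands. They were TATAAA for the TATA box, TTGCNNAA for C/EBP and GAGGAA for the core of PU.1. GATA factors were searched as GATAA and AP-1 as TGANTCA, and NF-κB by its usual consensus. Each sequence runs 5′ to 3′ toward the start site of its gene.
Il1b, chr2:129371140-129371389, minus strand: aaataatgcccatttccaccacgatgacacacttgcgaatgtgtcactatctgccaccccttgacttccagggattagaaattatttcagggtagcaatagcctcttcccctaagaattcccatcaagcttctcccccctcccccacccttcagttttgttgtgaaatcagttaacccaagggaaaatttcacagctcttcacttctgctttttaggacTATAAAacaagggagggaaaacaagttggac
Il1f9, chr2:24186226-24186475, plus strand: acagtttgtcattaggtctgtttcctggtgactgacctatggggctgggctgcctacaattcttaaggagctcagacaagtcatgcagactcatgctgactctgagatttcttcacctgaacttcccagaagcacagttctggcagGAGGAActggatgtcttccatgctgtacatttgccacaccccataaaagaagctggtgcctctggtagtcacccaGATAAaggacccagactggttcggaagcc
Il1r2, chr1:40085843-40086092, plus strand: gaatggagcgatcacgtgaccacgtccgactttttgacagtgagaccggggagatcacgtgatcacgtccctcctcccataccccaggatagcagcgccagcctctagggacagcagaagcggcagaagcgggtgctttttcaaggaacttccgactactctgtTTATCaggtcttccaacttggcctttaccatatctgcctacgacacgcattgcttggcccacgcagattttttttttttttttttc
Il18rap, chr1:40515112-40515361, plus strand: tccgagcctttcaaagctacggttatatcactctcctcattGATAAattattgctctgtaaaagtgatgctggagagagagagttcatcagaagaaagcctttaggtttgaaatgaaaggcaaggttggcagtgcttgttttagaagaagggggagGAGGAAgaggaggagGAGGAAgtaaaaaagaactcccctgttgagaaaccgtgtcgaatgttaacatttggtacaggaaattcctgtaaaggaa
Il1rl1 start 1, chr1:40429320-40429569, plus strand: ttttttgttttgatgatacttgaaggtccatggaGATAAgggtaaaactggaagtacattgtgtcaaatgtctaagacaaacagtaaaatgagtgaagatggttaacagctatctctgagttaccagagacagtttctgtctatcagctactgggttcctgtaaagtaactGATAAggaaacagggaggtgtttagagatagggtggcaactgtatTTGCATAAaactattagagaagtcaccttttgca
Il1rl1 start 2, chr1:40439379-40439628, plus strand: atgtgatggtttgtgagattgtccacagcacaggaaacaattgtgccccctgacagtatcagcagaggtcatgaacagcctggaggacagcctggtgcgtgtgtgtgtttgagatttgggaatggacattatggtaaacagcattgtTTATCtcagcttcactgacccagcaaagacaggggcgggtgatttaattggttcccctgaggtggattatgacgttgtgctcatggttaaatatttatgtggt
The Il1b stretch holds a TATA box whose first base is 31 bases before the start. GAGGAA stands 104 bases before the start of Il1f9 and 94 and 79 bases before that of Il18rap. GATAA occurs at 29 bases in Il1f9, at 209 in Il18rap, at 216 and 79 before the first start of Il1rl1 and, on the reverse strand, at 86 in Il1r2 and at 103 before the second start of Il1rl1, whose first start also has a C/EBP match at 34. Over 32851 start sites of all genes, windows of 250 bases held TATAAA in 12.4%, TTGCNNAA in 9.56%, GAGGAA in 23.3%, GATAA in 22.6%, TGANTCA in 6.75% and the NF-κB consensus in 7.25%. These matches are a description of the letters. The RefSeq start of Il1r2 lies inside the gene as annotated by GENCODE vM21.

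Receptor genes of the family sit side by side on chromosome 1 (mm10, GENCODE vM21), which allows neighbours to be compared. Along the plus strand the order is Il1r2 (chr1:40074079-40125231), Il1r1 (chr1:40225080-40317257), Il1rl2 (chr1:40324610-40367562), Il1rl1 (chr1:40429570-40465415), Il18r1 (chr1:40465552-40500854) and Il18rap (chr1:40515362-40551705). The outermost genes, Il1r2 and Il18rap, had the largest changes of the 6 on the log2(RPM + 1) scale (5.33 and 4.31), which compresses low genes. Il18r1 came above Il18rap with log2(RPM + 0.1) (4.88 and 4.77) and by voom on estimated reads (5.996 and 4.81). Il1r1, next to Il1r2, was at 0.786 ± 1.15 (SD, n = 4) and 1.19 ± 0.715 RPM (SD, n = 3). Il1rl1 and Il18r1, separated by 136 bases, differed in opposite directions in their means. Il18r1, the binding chain of the interleukin-18 receptor, was at 0.271, 0.0256, 0.158 and 0.0259 RPM in PBS (17 reads in all) and at 5.0, 7.06 and 5.31 RPM in DT. Those means, 0.120 ± 0.118 (SD, n = 4) and 5.79 ± 1.11 RPM (SD, n = 3), were 48.2-fold apart, and the gene passed the filter through its DT values alone.

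**Figure D3:**
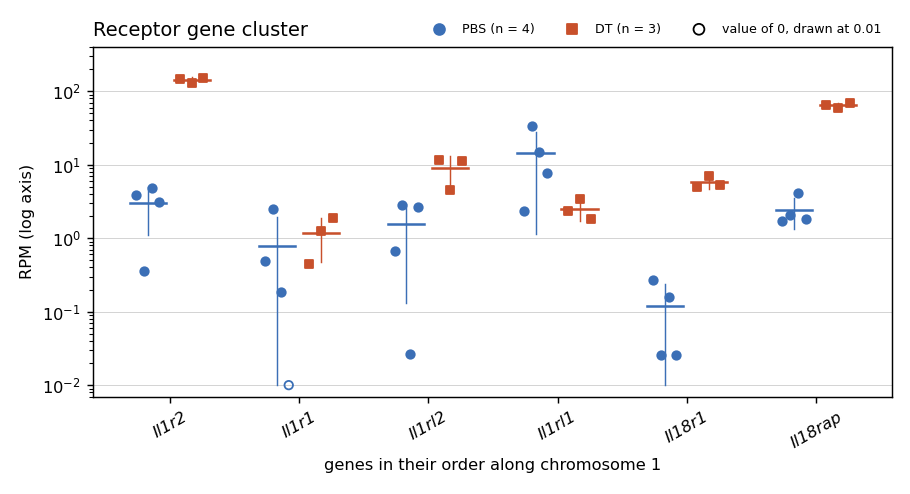
RNA level in each library, in RPM on a log axis, of the 6 receptor genes in their order along chromosome 1, with PBS as blue circles (n = 4) and DT as orange squares (n = 3). Bars are group means and vertical lines 1 SD, clipped at the lower edge, and the open circle is a value of 0. Il1r1 and Il1rl1 overlap between the groups, and their neighbours on both sides do not.

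The 5 ligand and antagonist genes of the set fall in 3 places. Il1f9 (chr2:24186476-24193568) and Il1rn (chr2:24336853-24351494) belong to a cluster on chromosome 2 in which Il1f5, Il1f6, Il1f8 and Il1f10 were at 0 in every library. Il1a (chr2:129299610-129309972) and Il1b (chr2:129364570-129371139) lie on the minus strand farther along, and Il18 (chr9:50554827-50581840) is apart from both. Il1rap is on chromosome 16 (chr16:26581704-26730117). Il1bos, an antisense gene singled out after its values were seen, shares 25 exon bases with Il1b. It was at 0 to 2.66 RPM in PBS and 0.0247 to 1.19 RPM in DT, or 1 to 55 reads a DT library.

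Of 11 further family genes, 5 were tested, 3 of which were higher and 2 lower in DT, beside 13.4% and 18.6% of all genes tested. Il18r1 passed the filter through DT and Il33 through PBS alone. Il33, the ligand of Il1rl1 and a nuclear alarm signal of endothelial, epithelial and stromal cells, was at 7.65, 5.60, 2.00 and 3.41 RPM in PBS and at 0.0247, 0.0476 and 0.117 RPM in DT. That is 76 to 254 reads against 1, 2 and 6 reads. The groups did not overlap. The means were 4.67 ± 2.48 (SD, n = 4) and 0.0631 ± 0.0481 RPM (SD, n = 3). Il33 is 1 of the 2 lower genes, and its call was lost by voom (adjusted p = 0.0566).

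Il1rl2, the receptor for the product of Il1f9, was at 0.663, 2.86, 0.0264 and 2.64 RPM in PBS and at 11.6, 4.54 and 11.2 RPM in DT. The groups did not overlap, and the means of 1.55 ± 1.42 (SD, n = 4) and 9.12 ± 3.97 RPM (SD, n = 3) were 5.89-fold apart (log2 change 2.10 ± 0.52, limma adjusted p = 0.0132). This call was lost without DT 1 (0.0571), without DT 3 (0.0594) and with no filter (0.0722). Il18bp, a secreted protein that captures interleukin-18, went from 3.42 ± 1.29 (SD, n = 4) to 17.4 ± 4.28 RPM (SD, n = 3), with a log2 change of 2.09 ± 0.33 (limma adjusted p = 0.00148). It shares 80 exon bases with Numa1 on the opposite strand.

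Sigirr, a receptor that restrains the family's signalling, went from a PBS mean of 49.1 ± 6.84 RPM (SD, n = 4) to a DT mean of 31.6 ± 10.4 RPM (SD, n = 3). Its change of -0.66 ± 0.23 passed narrowly (limma adjusted p = 0.0492), with overlapping groups, and the call was lost in 13 of 18 other settings. Il1rapl1 and Il1rapl2, known from the nervous system, were at 0 throughout.

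Downstream of the receptors, 4 of 17 tested signalling genes were higher and 3 lower, with a median log2 change of -0.11. Over all genes tested 13.4% were higher and 18.6% lower, so the share called lower was near that of all genes. Myd88, the adaptor of these and of Toll-like receptors, was at 27.1, 36.4, 31.0 and 31.0 RPM in PBS and at 94.8, 90.2 and 105 RPM in DT, with no overlap. It differed 3.08-fold (log2 change 1.6 ± 0.16, limma adjusted p = 7.07e-05). The kinase genes Irak4 (21.9 ± 7.94 to 53.5 ± 6.51 RPM) and Irak2 (7.91 ± 1.52 to 20.4 ± 4.92 RPM) were higher, as was Irak3 (6.45 ± 3.95 to 28.4 ± 6.12 RPM), which encodes a brake on the pathway (SD, n = 4 and n = 3). Lower were Tab2 (76.6 ± 14.9 to 43.8 ± 5.23 RPM), Chuk (39.8 ± 9.19 to 21.1 ± 0.890 RPM) and, named after its values were seen, Traf6 (34.5 ± 4.64 to 23.8 ± 0.608 RPM). With median-ratio scaling none of the 3 passed (adjusted p = 0.0536 for Tab2 and 0.0622 for Chuk), and Tab2 was also lost without DT 3 (0.0542).

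Interleukin-1β and interleukin-18 are released after cutting by caspase-1, which inflammasomes activate. Of 14 tested genes of this step 8 were higher and none lower, beside 13.4% and 18.6% of all genes tested. Their median log2 change was 1.02. Nlrp3, the sensor best known for interleukin-1β release, was at 0.0256 to 0.181 RPM in PBS (1 to 7 reads a library) and at 7.20, 5.78 and 8.10 RPM in DT, 65.0-fold higher in its mean. It is 1 of the 8 and passed the filter through its DT values alone. The sensor gene Mefv differed 16.3-fold (1.35 ± 0.902 to 22 ± 2.14 RPM; SD, n = 4 and n = 3). Gsdmd, whose product forms the pore, differed 2.22-fold (32.6 ± 2.44 to 72.5 ± 6.63 RPM), and the ATP receptor gene P2rx7 (1.31 ± 0.477 to 8.50 ± 1.78 RPM), Naip2 (5.44 ± 3.18 to 26.2 ± 3.10 RPM) and Casp4 (22.2 ± 2.82 to 42.6 ± 3.72 RPM) were higher as well. Casp1 itself, named after its values were seen, went from a PBS mean of 27.3 ± 4.57 RPM (SD, n = 4) to a DT mean of 49.5 ± 0.103 RPM (SD, n = 3), with a limma adjusted p of 0.00584.

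Other proteases, among them those of neutrophil granules, can also cut family precursors. All 5 tested genes of this list were higher, beside 13.4% of all genes tested, with a median log2 change of 3.11. They were Elane (279 ± 184 to 2258 ± 155 RPM), Prtn3 (77.0 ± 48.7 to 591 ± 32.3 RPM), Ctsg (23.8 ± 15.3 to 199 ± 20.3 RPM), and the calpain genes Capn2 (9.07 ± 2.26 to 23.4 ± 2.17 RPM) and Capn1 (20.7 ± 5.75 to 43.1 ± 0.984 RPM; SD, n = 4 and n = 3). Elane, Prtn3 and Ctsg were highest among PBS libraries in PBS 1, as were Il1a, Il1rap and the neutrophil marker sum, while Il1b, Il1rn, Il1f9, Il18, Il1r1, Il1r2, Il1rl1 and Il18rap were highest in other PBS libraries.

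Genes known to be induced by interleukin-1 in responding cells were mixed. Of 16 tested, 9 were higher and 1 lower, beside 13.4% and 18.6% of all genes tested, with a median log2 change of 1.16. Of the 9, 4 (Cxcl2, Ptgs2, Tnf and Ccl2) passed the filter through their DT values alone. Lcn2, an iron-binding protein gene that neutrophil precursors also express, differed 23.0-fold (143 ± 39.6 to 3299 ± 189 RPM; SD, n = 4 and n = 3). The chemokine gene Cxcl2 (0.809 ± 0.593 to 92.3 ± 69.2 RPM) and the adhesion molecule gene Vcam1 (10.6 ± 2.74 to 192 ± 126 RPM) were higher with a wide spread in DT (SD, n = 4 and n = 3). The cyclooxygenase gene Ptgs2 (0.169 ± 0.127 to 6.76 ± 3.71 RPM), Tnf (0.458 ± 0.717 to 7.64 ± 1.86 RPM) and Ccl2 (0.187 ± 0.244 to 9.67 ± 7.60 RPM) were also higher, the call of Ccl2 being lost by voom (adjusted p = 0.0628). The lower gene was Sod2, named after its values were seen, at 138 ± 52.2 and 68.7 ± 5.15 RPM with a limma adjusted p of 0.0495, which did not pass in most other settings. Csf3, a classical target in endothelium and stroma, was at 0 in every library.

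Within the DT group the genes fell into a narrow and a wide set. The coefficient of variation over the 3 libraries was 6.50% for Il1f9, 7.22% for Il18rap, 8.04% for Il1r2, 8.89% for Il1rn and 11% for Il1rap. It was 26.9% for Il1b, 31.8% for Il1rl1, 60.4% for Il1r1, 66.2% for Il18 and 96.0% for Il1a. Except for Il1b, the genes of the wide set had low DT means of 1.19 to 8.75 RPM, against 22.7 to 142 RPM in the narrow set. Il1b, Il18, Il1r1, Il1r2, Il1rap and Il18rap were highest in DT 3, as were Vcam1, Cxcl2 and Ccl2 at 174%, 187% and 190.0% of their DT means. DT 3 was also the deepest library and had the highest monocyte and macrophage marker sum, while the neutrophil marker sum was highest in DT 1. With 3 libraries these orders are a description.

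Among PBS libraries, Il1f9 and Il1r2 were both lowest in PBS 2, with 14 reads each, which was also the library with the lowest neutrophil marker sum. Il1rn, by contrast, was highest in PBS 2, and Il1b in PBS 4. Il1rl1 descended from PBS 2 over PBS 3 and PBS 4 to PBS 1. The erythroid marker sum had the same order (10537, 7005, 6491 and 986 RPM), as had, chosen after their values were seen, Klf1 (115, 73.1, 61.2 and 5.15 RPM), Gata2 (17.7, 15.1, 13.6 and 1.90 RPM) and Zbtb46 (17.5, 10.4, 7.45 and 1.54 RPM). In the DT group, Il1rl1 and Gata2 descended from DT 2 over DT 1 to DT 3. Klf1, Zbtb46 and the erythroid marker sum descended from DT 2 over DT 3 to DT 1. The part of these genes in the Il1rl1 values was not tested.

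Cell types known for Il1rl1 were checked as well. Mast cell, basophil and eosinophil markers summed to 31.6 to 212 RPM in PBS and 908 to 1734 RPM in DT, with Cma1 and Tpsb2 at 0. Of 10 tested 8 were higher, beside 13.4% of all genes tested, and 1 of the 8 passed the filter through its DT values alone. Type 2 innate lymphoid markers summed to 198 to 458 and 120 to 157 RPM, with Il5 and Il13 at 0. Most of this sum was Il7r (238 ± 87.6 to 93.5 ± 17.3 RPM; SD, n = 4 and n = 3), a receptor gene also expressed by B-lineage precursors, and it was the 1 lower gene of 3 tested. The 1 higher gene was Gata3 (0.786 ± 0.897 to 3.29 ± 1.65 RPM; SD, n = 4 and n = 3), named after its values were seen, which passed the filter through DT alone. The counts of the type 2 list rest on 3 tested genes, beside 13.4% higher and 18.6% lower over all genes tested. The part of these cell types in the Il1rl1 values was not tested. Erythroid markers were at 986 to 10537 RPM in PBS and 1553 to 2062 RPM in DT. They included 7 lower and 3 higher genes of 10, beside 18.6% and 13.4% of all genes tested.

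**Figure D4:**
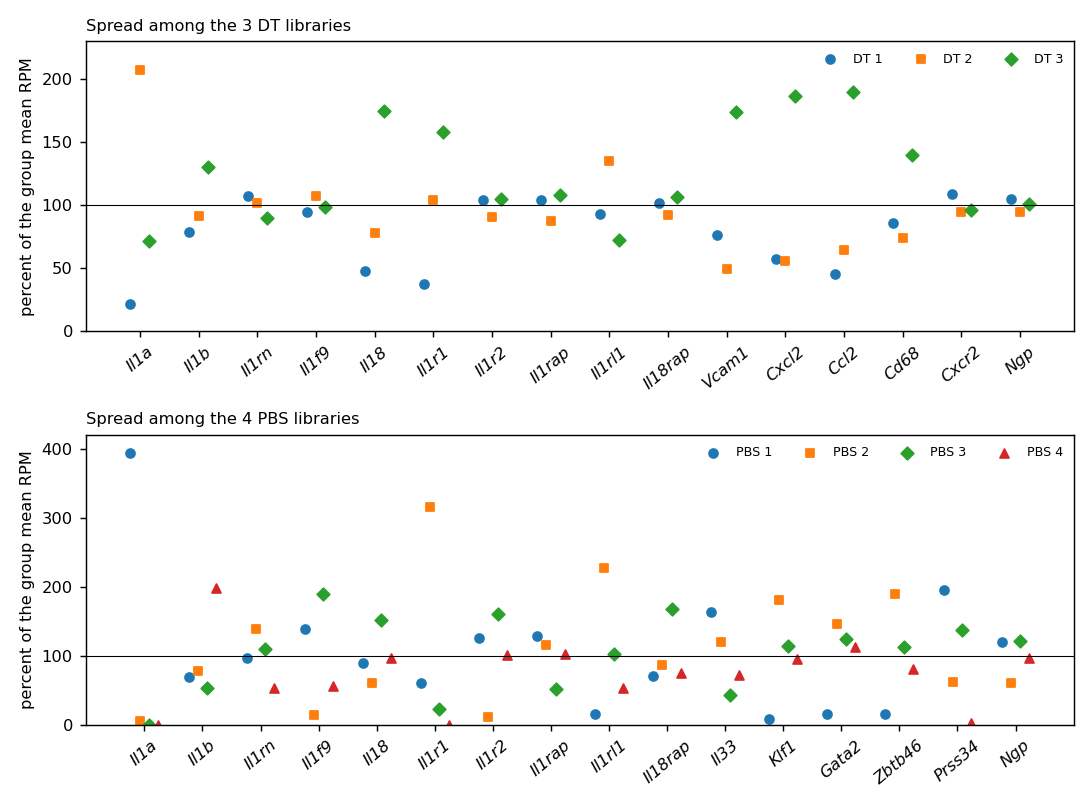
Level of each gene in single libraries as a percent of the mean RPM of its own group, above for the 3 DT and below for the 4 PBS libraries, with the line at 100. The interleukin-1 family genes are on the left of each panel and comparison genes, including Cd68, Cxcr2, Ngp and Prss34 drawn from the marker lists, on the right. Il1f9, Il1r2, Il1rn and Il18rap cluster near 100 in DT, Il18 and Il1b are spread more widely, and Il1rl1 in PBS follows Klf1 and Gata2.

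The genes with the profile most like each member, by Pearson correlation of log2(RPM + 1) over all 7 libraries, were listed as a description. These coefficients rest mostly on the difference between the groups, which the points share. The nearest were Oas3 (r = 0.997), Spatc1 and Acot7 for Il1b, Pxn (0.999), Clec5a and Sfxn5 for Il1rn, and Twf2 (0.999), Pdlim7 and AI413582 for Il1f9. Among receptors they were Ahnak (0.999), Cd63 and Rab32 for Il1r2, Mmp25 (0.998) and Pygl for Il18rap, and Cyp4f16 (0.991), Rab29 and Saraf for Il1rap. For the genes with overlapping groups they were Pisd (0.976), Ryr1 and Tmem51 for Il18, Susd6 (0.979), Plekhm3 and Rnf41 for Il1a, and Ahcy (0.997), Mrpl55 and Josd1 for Il1rl1.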

How the data were processed

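Libraries of 4 PBS and 3 DT samples were made with a SMARTer Ultra Low kit, 1 ng of RNA each and 14 amplification cycles, per the labels' protocols. STAR 2.5.3a, Partek and mm10 are named per the submitters' processing notes. Annotation, counting and strand settings were not given in the sources used here. Values were deposited by the authors in 1 table named FPKM, yet they are on an RPM scale: once the offset of 0.0001 was removed, 1031 to 1209 genes in a library shared its most frequent nonzero value, taken as the step. Of the values up to 20 steps, only 60.5% to 62.6% were whole (tolerance 0.02 steps), so no count model was the main test, and read numbers are values divided by the step.

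Limma 3.58.1 (R 4.3.3) with an intensity trend was fitted on log2(RPM + 1), which understates changes of low genes, for the 14100 genes whose mean reached 1 RPM, with Benjamini-Hochberg adjustment at 0.05. The code was tested on simulated data. Single genes were also compared by exact two-sided permutation. The genes and lists were chosen with earlier results of these data known. Named are all listed family genes, up to 6 genes past the threshold with the smallest p of each pathway list, sums and leading genes of marker lists, and the 3 genes most correlated with each tested member, 1 of which is not reported here. Alternatives covered offset, filter, scaling, trend, weights, voom, replicate block and leaving out each library. Amplified reads are not independent molecules.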

Additional observations from a re-analysis of the deposited data

Results flagged for a closer look

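A library standing apart from the other 3 of its PBS group was looked for in 65 genes. The measure, on log2(RPM + 1), was the gap to the nearest library as a share of the group's range (Dixon's ratio at its 95% limit). Chance alone passes this limit in about 1 of 20 groups. For Il1a the share was 0.976, since PBS 1 had 62 reads and the other PBS libraries 1, 0 and 0. For Tnf it was 0.984, through PBS 2 at 1.53 RPM beside 0.0904 to 0.105 RPM. For Gata2 it was 0.867 and for the erythroid gene Car1 0.839, in both cases through a low PBS 1, the PBS library that was also lowest for Il1rl1.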

How the results depend on the processing

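No gene recomputed under the other settings changed its direction. The count of 7 higher family genes became 6 with no filter, a minimum mean of 5, no trend or voom. It became 8 with median-ratio scaling or sample weights, and 5 to 7 when single libraries were left out. The count of 0 lower family genes became 1 (Il1rl1) with sample weights, and 0 to 1 when single libraries were left out. Of further family genes, 3 higher became 1 with a minimum mean of 5, and 2 lower became 1 with log2(RPM + 0.1), no filter, a minimum mean of 5, median-ratio, quantile or upper-quartile scaling or no trend, 0 with voom, and 1 to 2 without single libraries. For receptor signalling, 3 lower became 0 with median-ratio scaling, 5 with sample weights, and 1 to 3 without single libraries. For interleukin-1-inducible genes, 9 higher became 5 with a minimum mean of 5, and 1 lower became 0 with log2(RPM + 0.1) or log2(RPM + 0.5), no filter, all 3 scalings, no trend or voom, and 0 to 1 without single libraries. The higher minimum tests fewer genes; the cause of the other changes was not tested. Over all genes, 2622 lower became 1709 with no filter, 1323 with median-ratio scaling, and 1500, 1609 and 1208 without DT 1, DT 2 and DT 3.

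Deviations of PBS and DT samples with the same number correlated at 0.0419, 0.0485 and 0.0103. PBS 1 and PBS 2 correlated best with the DT sample of their own number, and PBS 3 with DT 2 (0.0192). All of these values are small, so they cannot tell whether the numbers pair the samples. With the replicate block on samples 1 to 3 of each group, 1678 genes were higher and 1577 lower, 6 family genes were higher, and 1 further family gene and 0 inducible genes were lower.

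With 7 libraries the exact test cannot go below 0.0286, and values near 0.0585 to 0.0904 RPM, such as Il33 in DT, rest on a few reads.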
